A study of Mus musculus with 12 samples.

Results

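Kidneys of mice with chronic kidney disease were compared between animals under time restricted feeding (the CKD TRF libraries) and animals with the disease alone (the CKD libraries), 8 of the 12 libraries of the study. The libraries were chosen by their titles, CKD TRF 1 to 4 and CKD 1 to 4. All came from C57BL/6 mice, an inbred laboratory strain, and the 4 Control libraries of the same strain are given only as the level of undiseased kidney. Messenger RNA was measured by QuantSeq, which reads one short stretch near the 3′ end of each polyadenylated transcript. Both compared groups carry the disease, so the feeding schedule is the one labelled difference between them. Not given by the labels are the way in which kidney disease was brought about, which hours food was offered, how the CKD mice without the schedule were fed, the hour of the day at collection, and the age and sex of the mice. Separate animals behind the libraries are not stated either, so p-values measure the spread between these libraries, which may be technical.

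In time restricted feeding, food is present for only part of each day. Meal time is a strong cue for the clocks of peripheral organs, in which the factors CLOCK and BMAL1 drive the period and cryptochrome genes that later repress them, with REV-ERB proteins closing a further loop on Bmal1. Fasting raises glucocorticoid, glucagon and free fatty acids, which act in the kidney through the glucocorticoid receptor, FOXO factors and PPAR-alpha, while feeding favours sterol synthesis and mTORC1 signalling. In chronic kidney disease the proximal tubule loses its transporters and mitochondrial genes, injured tubule cells take up a repair program, and fibroblasts lay down collagen matrix.

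The 8 diseased libraries held 14145846 to 17209942 reads, and the number of reads did not part CKD TRF from CKD (exact two-sided permutation p = 0.857). Levels are given as scaled reads, the linear form of the deposited log2 values, with sums of 941189 to 978419 per CKD library and of 987841 to 1025834 per CKD TRF library, which did not overlap. Kidney markers were present in every library, with Slc34a1, the phosphate carrier of the proximal tubule, at 2313 to 3427 scaled reads and Umod, the uromodulin gene of the thick ascending limb, at 790.3 to 1776. RNA of fat was unevenly present: Adipoq, Cfd, Plin1 and Cidec, which mark adipocytes, summed to 11.1, 160.1, 3.60 and 369 scaled reads in CKD 1 to 4 and to 73.5, 0.398, 63.6 and 121.7 in CKD TRF 1 to 4, against 0 to 1.29 in Control. Fat RNA was thus high in CKD 2 and CKD 4 and in CKD TRF 1, 3 and 4.

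No gene passed the test between the feeding groups. Of 13943 genes tested in limma, 0 (0%) had an adjusted p under 0.05, and the lowest adjusted p was 0.705. At an unadjusted p under 0.05 stood 890 genes, 477 of them higher in CKD TRF (3.42% of those tested) and 413 lower (2.96%). The 4 values of one group lay wholly above those of the other for 331 genes higher in CKD TRF (2.37%) and 297 lower (2.13%). The same fit called 6333 genes between CKD and Control; the 2 comparisons share the CKD libraries, and whether their sizes differ was not tested. The 95% interval of the difference lay within 2-fold in both directions for 13341 genes (95.7%) and within 1.5-fold for 9237 (66.2%), with a median half-width of 0.34 on the log2 scale. On this scale, a change of 2-fold or more therefore lay outside the interval for most genes, while changes under 1.5-fold could not be told from none for many. The scale adds 1 to the scaled reads and so shrinks differences of low genes. For genes at a few scaled reads, a change of 2-fold or more can lie inside the interval.

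The split of genes at unadjusted p under 0.05 turned on the scaling. Against 477 higher and 413 lower as deposited, scaling all libraries to equal sums gave 194 and 943, and limma voom on the recovered reads gave 214 and 1170. Centring each library on its median gave 648 and 310, and centring within bins of transcript length gave 614 and 320. The median difference over all genes was -0.0075 as deposited, -0.08 at equal sums and -0.09 with voom. Single genes can move further: over the 5 scalings, 20 of the 51 genes named by rule moved by more than 0.1. All 20 did so under voom or quantile normalization, such as Miox (0.31 after quantile normalization). Voom also replaces the added constant of 1, which weighs on low genes such as Xlr4a (2.30 with voom) and Myc (-1.70 with voom). At equal sums, which keep that constant, Xlr4a stood at 1.26 and Myc at -1.05, against 1.28 and -0.99 as deposited. The count of 890 was 581 without CKD 1, 544 without CKD 2 and 505 without the 5 libraries with fat RNA, which leaves 2 CKD libraries and 1 of CKD TRF.

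The genes named next had the lowest unadjusted p in each direction; none is past the threshold, all 20 have an adjusted p of 0.705 in limma, and they describe where the libraries differed most for their spread. Slc26a1 (chromosome 5, 108669878 to 108675569 in mm10), the sulfate carrier of the proximal tubule's basolateral membrane, stood at 54.2, 52.2, 54.7 and 64.9 scaled reads in CKD 1 to 4 and at 70.8, 80.2, 74.3 and 84.2 in CKD TRF 1 to 4. Every CKD TRF value lay above every CKD value and below the Control level of 105 ± 9.72 (SD, n = 4), and the difference was 0.45 ± 0.10 (log2, ± SE, unadjusted p = 0.000314 in limma). Miox (chromosome 15, 89334398 to 89337015), the kidney's inositol oxygenase, stood at 1299, 1405, 1383 and 1742 in CKD and at 1748, 2137, 1789 and 2768 in CKD TRF, with a difference of 0.52 ± 0.14 (unadjusted p = 0.00142, limma). Its lowest CKD TRF value lay only just above its highest CKD value, and Control stood at 1922 ± 164.

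Rraga (chromosome 4, 86575668 to 86577285) encodes the small GTPase RagA, which passes the amino acid signal to mTORC1. Its levels were 87.3, 92.0, 133 and 112 scaled reads in CKD and 176, 145, 152 and 143 in CKD TRF, a difference of 0.55 ± 0.13 with a 95% interval of 0.29 to 0.81. The groups were apart, yet both lay far below the 294 ± 38.9 of Control. Tfrc (chromosome 16, 32608920 to 32632794), the transferrin receptor that takes iron into cells, stood at 76.9, 73.8, 86.5 and 77.0 in CKD and at 106, 108, 105 and 101 in CKD TRF (0.42 ± 0.11). Its CKD TRF values lay close together and close to the Control level of 105 ± 17.4. Elovl2 (chromosome 13, 41182381 to 41220405), which lengthens polyunsaturated fatty acids, stood at 25.9, 36.6, 25.1 and 31.6 in CKD and 43.5, 45.3, 39.1 and 48.4 in CKD TRF (0.56 ± 0.14), so that CKD TRF lay above CKD and CKD above the 22.8 ± 3.01 of Control. Cela1 (chromosome 15, 100674421 to 100687921), an elastase gene, stood at 92.8, 102, 134 and 154 in CKD and 179, 164, 168 and 162 in CKD TRF (0.51 ± 0.14), with Control at 306 ± 49.0.

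Ccdc151 (chromosome 9, 21989871 to 22002634), which encodes a factor that docks outer dynein arms in motile cilia, had the lowest p of all genes (0.000134, unadjusted, limma). It stood at 3.11, 5.66, 4.47 and 6.17 scaled reads in CKD and at 8.81, 10.9, 11.1 and 11.1 in CKD TRF, a difference of 1.00 ± 0.21. CKD TRF lay near Control (8.56 ± 2.32) and CKD below it. Plekhh2 (chromosome 17, 84511895 to 84622138) showed the largest difference of the 20 and the widest error, 1.93 ± 0.52, from 8.63, 4.99, 9.46 and 6.62 in CKD and 5.30, 34.6, 37.7 and 109.9 in CKD TRF. CKD TRF 1 lay inside the CKD range, while the other CKD TRF libraries were at least 3 times the highest CKD value; without CKD TRF 1 the difference was 2.70 ± 0.34 and Plekhh2 was the 1 gene called (adjusted p = 0.00311, limma, against 0.705 with all libraries), while without CKD TRF 4, the highest library, it was 1.32 (adjusted p = 0.904, limma). Snora47 (chromosome 13, 95330600 to 95330737), a small nucleolar RNA, and Xlr4a (chromosome X, 73074345 to 73082478), one of a family of near-identical X-linked genes whose reads cannot be assigned with certainty, were at low levels in both groups, and differed by 1.32 ± 0.32 and 1.28 ± 0.35.

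**Figure D1:**
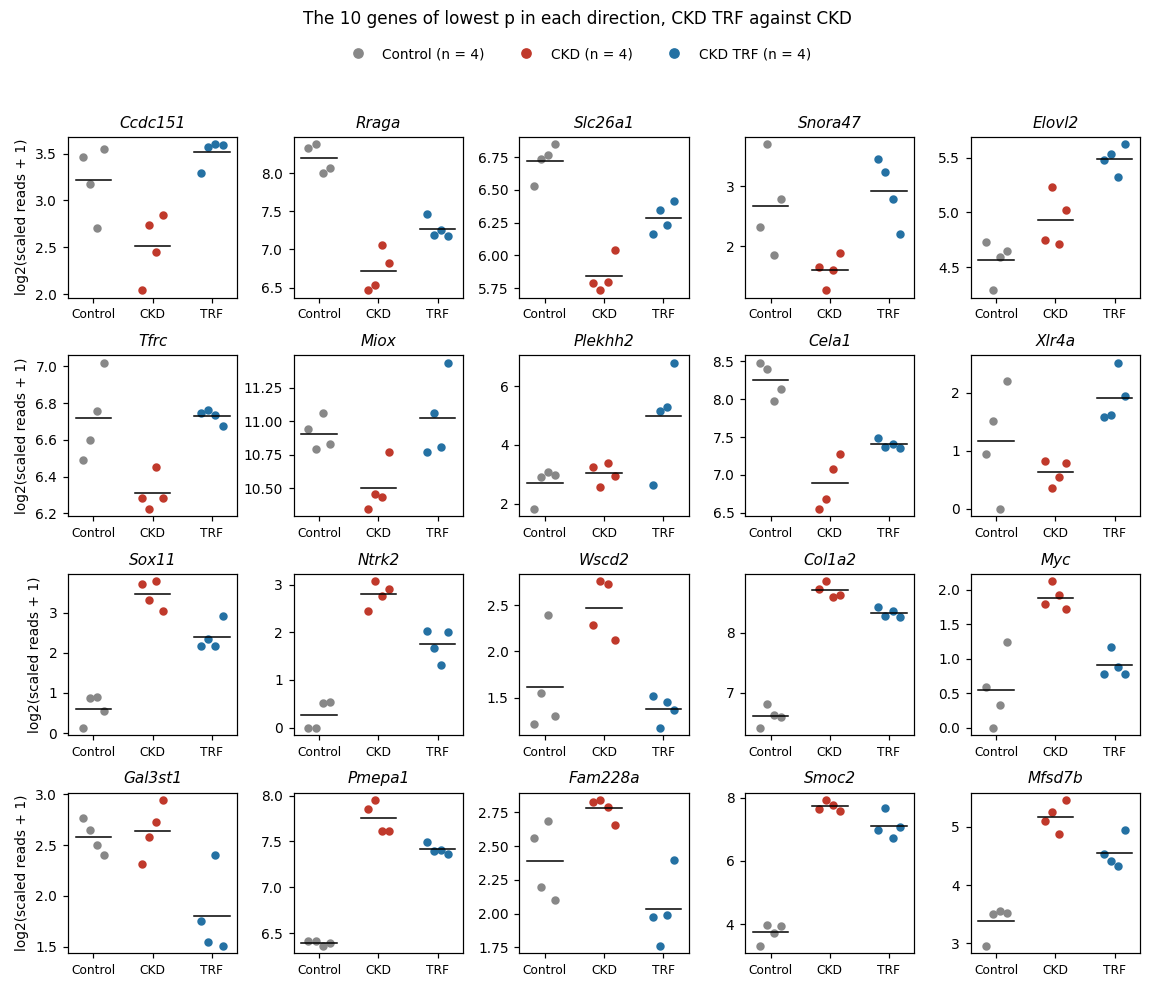
Deposited level, log2(scaled reads + 1), of the 10 genes of lowest unadjusted p higher in CKD TRF (upper 10 panels) and the 10 lower in CKD TRF (lower 10 panels). Points are libraries in the order 1 to 4, bars are group means, TRF on the axis stands for CKD TRF, and each panel has its own scale; none of the 20 genes is past the adjusted threshold.

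Of the 10 genes lower in CKD TRF, Col1a2 and Smoc2 encode matrix proteins. Col1a2 (chromosome 6, 4504814 to 4541544), a chain of type I collagen, stood at 422, 461, 385 and 396 scaled reads in CKD and at 344, 308, 329 and 305 in CKD TRF. The groups were apart by -0.37 ± 0.10 (unadjusted p = 0.00111, limma), while both lay far above the 97.6 ± 11.04 of Control. Smoc2 (chromosome 17, 14279506 to 14404790), a matricellular protein of kidney fibroblasts, stood at 197, 243, 219 and 189 in CKD and at 126, 202, 105 and 135 in CKD TRF. CKD TRF 2 lay inside the CKD range and the other 3 CKD TRF libraries below it, with a difference of -0.61 ± 0.17; without the 5 libraries holding fat RNA, which leaves CKD 1, CKD 3 and CKD TRF 2, the difference was -0.042. Pmepa1 (chromosome 2, 173224458 to 173276533), a target and restraint of TGF-beta signalling, stood at 229.9, 247, 195 and 195 in CKD and at 179, 167, 168 and 163 in CKD TRF (-0.35 ± 0.09), against 83.1 ± 1.41 in Control.

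Sox11 (chromosome 12, 27334264 to 27342574), a transcription factor of the developing kidney, stood at 12.2, 8.86, 12.7 and 7.21 scaled reads in CKD and at 3.51, 4.11, 3.46 and 6.57 in CKD TRF. This separation of -1.06 ± 0.25 (unadjusted p = 0.000327, limma) set CKD TRF between CKD and the 0.560 ± 0.355 of Control. Ntrk2 (chromosome 13, 58806569 to 59133970), the neurotrophin receptor TrkB, showed the same order, with 4.48, 7.40, 5.75 and 6.49 in CKD, 3.08, 2.19, 1.49 and 3.02 in CKD TRF and 0.221 ± 0.255 in Control (-1.04 ± 0.24 between the feeding groups). Myc (chromosome 15, 61985391 to 61990374), the growth-related transcription factor, stood at 2.46, 3.36, 2.79 and 2.29 in CKD and at 0.716, 1.26, 0.834 and 0.723 in CKD TRF, near the 0.534 ± 0.595 of Control, and differed by -0.99 ± 0.26. Mfsd7b, an older symbol of the haem exporter gene Flvcr1, stood at 33.3, 37.3, 28.4 and 43.0 in CKD and 22.2, 20.3, 19.0 and 29.6 in CKD TRF (-0.62 ± 0.17), where CKD TRF 4 lay inside the CKD range.

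A further 3 genes differed from this order. Wscd2 (chromosome 5, 113490333 to 113589725) stood at 3.89, 5.77, 5.63 and 3.34 scaled reads in CKD and 1.86, 1.26, 1.73 and 1.58 in CKD TRF (-1.10 ± 0.26), so that CKD TRF lay below the Control mean of 2.24 ± 1.36. Gal3st1 (chromosome 11, 3983636 to 3999326), which makes sulfatide, hardly differed between CKD and Control, by 0.06 ± 0.22, and was lower in CKD TRF by -0.84 ± 0.22, from 3.96, 4.99, 5.63 and 6.69 to 2.36, 1.92, 4.29 and 1.84. Fam228a (chromosome 12, 4713670 to 4738430) stood at 6.10, 6.17, 5.92 and 5.31 in CKD and at 2.94, 2.39, 2.98 and 4.27 in CKD TRF (-0.75 ± 0.20). All 3 are below 7 scaled reads in each of these 8 libraries, where few reads stand behind a value.

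The 50 gene lists, with 1141 genes tested, are described by their counts and medians, and their other members named below were picked for a low p after the values were seen. No member of any list passed the adjusted threshold, so the share of 0% holds throughout. The medians ran from -0.32 for adipose tissue markers to 0.51 for blood cells, against -0.0075 for all 13943 genes. Beside these, the largest were -0.30 for the matrix list, -0.26 for the adrenal gland list (1 gene tested), 0.39 for the pancreas and liver list (6 genes tested) and 0.27 for neutrophils (4 genes tested). Leaving out 1 library moved the median of 37 of the 50 lists by more than 1.5 times or turned its sign, among them the adipose list, which was 0.36 without CKD 4. Leaving out a Control library, adding the replicate block or dropping the filter on level repeats every list median by construction. A stricter filter and the fit of the 8 diseased libraries can only change which members are counted. The 25 alternatives cited below include all of these, so a sign kept under them is partly fixed in advance. Differences between CKD and Control from the same fit are set beside them, and, sharing the CKD libraries, they are not independent of the feeding comparison.

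**Figure D2:**
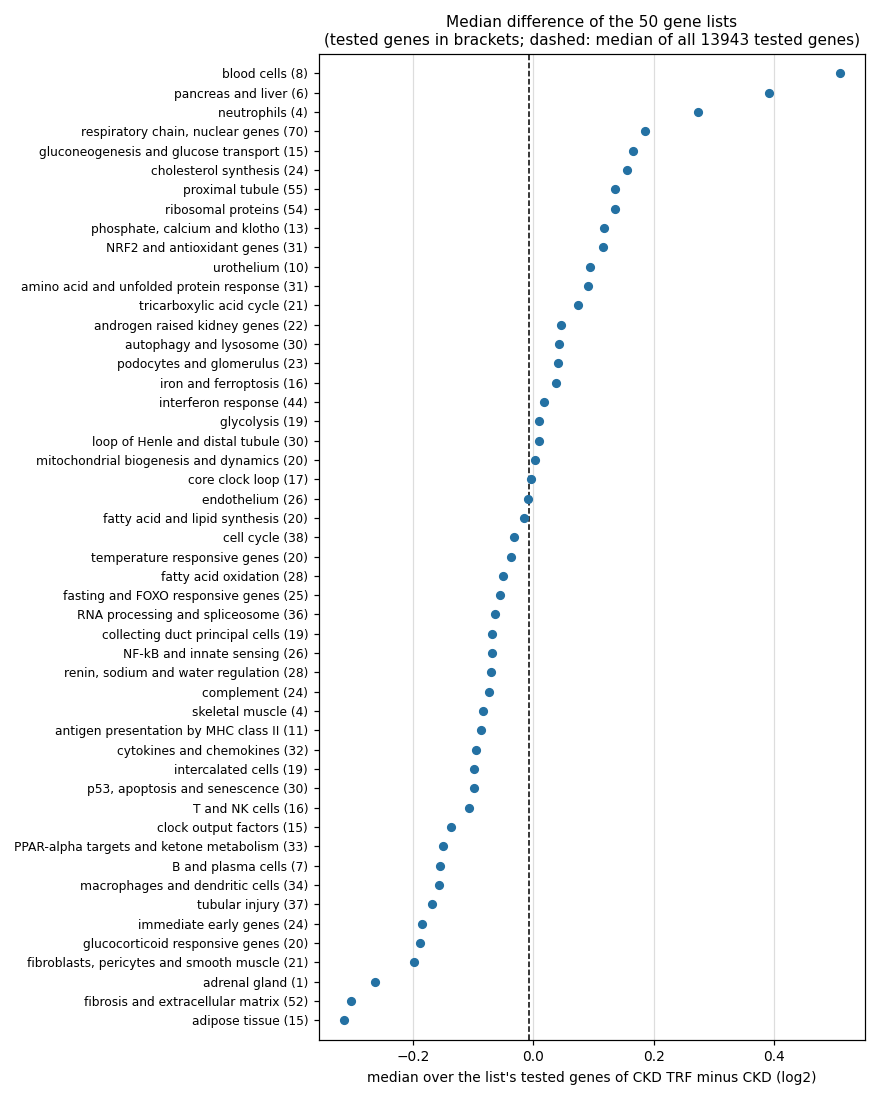
Median over each list's tested genes of the difference CKD TRF minus CKD on the log2 scale, one point per list, with the number of tested genes in brackets. The dashed line marks the median of all 13943 tested genes (-0.0075); matrix, fibroblast, glucocorticoid and immediate early genes lie to its left, and respiratory chain, sterol and proximal tubule genes to its right.

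The core clock genes had no common direction between the feeding groups. Of 17 tested genes of the loop, 8 were higher and 9 lower in CKD TRF, with a median of -0.004 that kept its sign under 17 of 25 alternatives. Of those lower, 2 stood at unadjusted p under 0.05 in limma (2.96% of all genes). The list joins activators with the repressors they drive, which can move in opposite directions. Its median therefore cannot show whether the clock was shifted, and the hour of collection is not given. Arntl, the gene of BMAL1, stood at 12.3, 12.7, 15.8 and 13.8 scaled reads in CKD and 12.5, 13.9, 15.9 and 15.2 in CKD TRF (0.07 ± 0.17), with the groups fully mixed; it was at -0.0032 with equal sums and -0.0012 with voom. Clock, its partner, differed by -0.07 ± 0.11, and Cry1 and Cry2, which encode the repressing cryptochromes, by 0.12 ± 0.19 and 0.09 ± 0.21. Nr1d1, the gene of REV-ERB-alpha, stood at 25.1, 24.0, 16.8 and 16.5 in CKD and 32.1, 20.6, 19.9 and 18.1 in CKD TRF (0.12 ± 0.17, 95% interval -0.24 to 0.49). CKD TRF 1 was the highest of the 8 libraries for Nr1d1, and the other CKD TRF libraries lay within the CKD range.

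Per1 was the clock gene with the lowest p. It encodes a period protein and also responds directly to glucocorticoid, and stood at 25.1, 22.5, 11.6 and 16.6 scaled reads in CKD and at 23.1, 4.70, 10.7 and 7.62 in CKD TRF, against 6.43 ± 1.30 in Control. CKD TRF 1 sat among the high CKD values while the other CKD TRF libraries were lower, and the difference was -0.82 ± 0.31 (unadjusted p = 0.0157, limma), with -0.51 without CKD TRF 2 and -1.67 without the libraries with fat RNA. Per2 stood at 11.3, 16.2, 4.12 and 7.67 in CKD and 11.5, 8.61, 6.08 and 6.70 in CKD TRF (-0.13 ± 0.33), and its sign turned without CKD 2 (0.14) and without the libraries with fat RNA (0.28). Per3, the third period gene, differed by -0.41 ± 0.33 at levels below 6 scaled reads, and Bhlhe40, the repressor DEC1, was lower by -0.41 ± 0.17 with overlapping groups. CKD TRF 1 was the highest library of its group for both Per1 and Nr1d1, and CKD TRF 2 was the lowest for Per1.

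Clock output genes were on balance lower. Of 15 tested, 11 were lower in CKD TRF, with a median of -0.14 that ran from -0.33 to -0.10 over the alternatives. Dbp, the output factor with the strongest daily swing in many organs, stood at 13.4, 11.5, 5.05 and 6.03 scaled reads in CKD and 14.6, 5.30, 9.90 and 8.61 in CKD TRF and differed by 0.11 ± 0.32 (95% interval -0.56 to 0.77), but by -0.15 with the fat and urothelium covariates and -0.56 without the libraries with fat RNA. Tef and Hlf, its relatives, differed by -0.09 ± 0.14 and -0.10 ± 0.10. Usp2, a rhythmic ubiquitin protease, had the lowest p of the list (0.00204, unadjusted, limma), with 176, 157, 127 and 126 in CKD and 141, 95.4, 103 and 82.6 in CKD TRF (-0.49 ± 0.14). CKD TRF 2, 3 and 4 lay below every other library of the study for Usp2, Control (168 ± 13.5) included, and CKD TRF 1 lay within the CKD range.

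**Figure D3:**
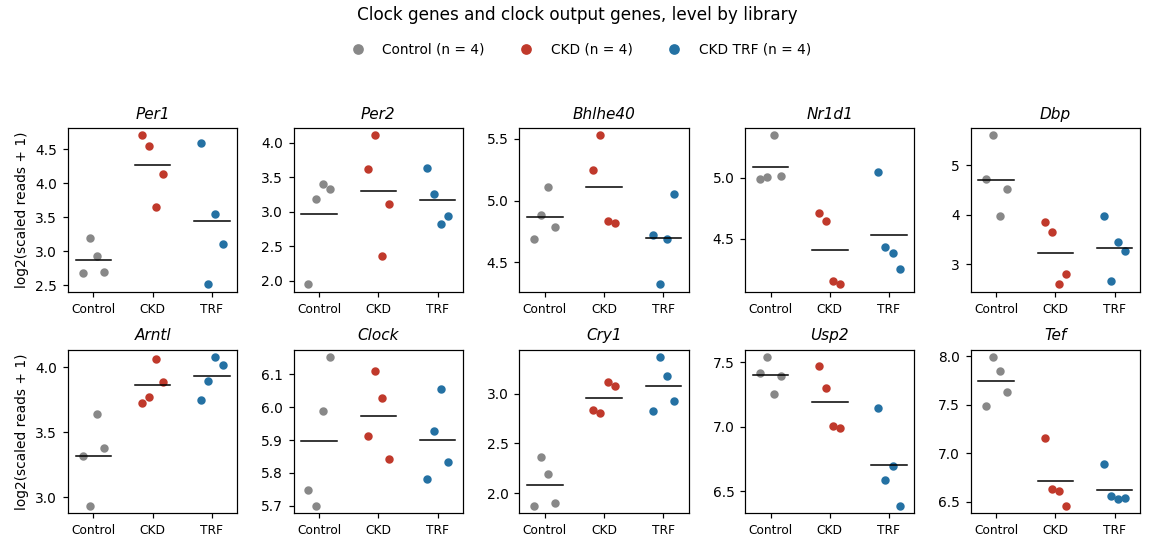
Deposited level, log2(scaled reads + 1), of 7 core clock genes and 3 output genes (Dbp, Usp2 and Tef) by library; points are libraries 1 to 4 in order, bars are group means, TRF on the axis stands for CKD TRF, and each panel has its own scale. CKD TRF 1 is the highest CKD TRF value for Per1, Per2, Nr1d1, Dbp, Usp2 and Tef, and the CKD and CKD TRF values overlap in all 10 panels.

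Of 20 genes that answer to glucocorticoid, 17 were lower in CKD TRF, 5 of them at unadjusted p under 0.05, where 2.96% of all genes stood, and the median was -0.19. This median rested on single libraries: it was -0.016 without CKD TRF 2 and -0.04 without CKD 2. The library medians of this list, taken as differences from the CKD mean, spanned -0.17 to 0.29 over the CKD libraries, while CKD TRF 2 was at -0.70 and the other CKD TRF libraries lay between -0.17 and 0.05. Sgk1, the kinase that raises distal sodium uptake, stood at 109, 162, 96.8 and 117 scaled reads in CKD and at 104, 64.4, 97.5 and 113 in CKD TRF, with only CKD TRF 2 below the CKD values (-0.35 ± 0.16, and -0.18 without that library). Cdkn1a, the cell cycle inhibitor p21, differed by -0.45 ± 0.15, and Angptl4, an inhibitor of lipoprotein lipase, by -0.55 ± 0.22. Fkbp5, a glucocorticoid target much used as a readout, did not follow, with 37.3, 47.3, 42.6 and 44.0 in CKD, 55.9, 41.9, 43.5 and 35.7 in CKD TRF and 0.03 ± 0.15 between them.

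Genes of fasting did not, on balance, stand at a higher level in CKD TRF. Of 33 PPAR-alpha targets and ketone genes, 27 were lower, 1 of them at unadjusted p under 0.05 (2.96% of all genes). The other 6 were higher, 1 of them at unadjusted p under 0.05 (3.42% of all genes). The largest rise was 0.94 and the largest fall -0.72, with a median of -0.15 (-0.24 to -0.10 over the alternatives). Cpt1a, which admits fatty acids to mitochondria, stood at 202, 174, 196 and 189 scaled reads in CKD and 176, 189.9, 153 and 178 in CKD TRF (-0.13 ± 0.09). Pdk4, which holds back pyruvate oxidation, stood at 2.60, 6.33, 2.03 and 5.05 and 1.36, 2.06, 3.16 and 4.67 (-0.38 ± 0.35). Both genes overlapped between the groups. Cyp4a14, a fatty acid hydroxylase, stood at 76.4, 291, 39.0 and 47.3 in CKD and 61.9, 42.0, 42.6 and 49.8 in CKD TRF; its difference of -0.72 ± 0.43 was -0.10 without CKD 2, the one high library. Among FOXO and fasting genes (25, median -0.06), Bcl6, a transcriptional repressor, had 57.9, 134, 26.6 and 108 in CKD and 67.5, 16.3, 26.0 and 16.6 in CKD TRF (-1.35 ± 0.40), the high values of which were CKD 2, CKD 4, CKD TRF 1 and CKD 1, and Igfbp1 was higher by 0.59 ± 0.23.

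Sterol synthesis leaned the other way. 19 of 24 genes of the cholesterol pathway and its SREBP2 targets were higher in CKD TRF, 5 at unadjusted p under 0.05 (3.42% of all genes), and the median of 0.16 kept its sign under all 25 alternatives (0.08 to 0.27). Msmo1, the methylsterol monooxygenase, stood at 60.01, 71.2, 63.0 and 66.4 scaled reads in CKD and at 78.3, 103, 87.1 and 81.9 in CKD TRF, without overlap (0.42 ± 0.12), where Control stood at 62.3 ± 9.93. Hmgcs1, the HMG-CoA synthase of the pathway, differed by 0.14 ± 0.11, with CKD TRF 4 below the other 3. Fatty acid synthesis genes showed no such lean: 10 of 20 were higher, with a median of -0.02, and Scd1, the stearoyl-CoA desaturase, differed by -0.30 ± 0.20 with high values in CKD 2 and CKD 4.

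Genes of the extracellular matrix were lower in CKD TRF than in CKD almost throughout. Of 52 tested, 50 were lower, 19 of them at unadjusted p under 0.05 (2.96% of all genes) and 12 without overlap (2.13% of all genes). The median of -0.30 kept its sign under all 25 alternatives (-0.40 to -0.23), and the library medians, as differences from the CKD mean, spanned -0.10 to 0.16 over the CKD libraries and -0.37 to -0.23 over those of CKD TRF. The median difference of the same genes between CKD and Control was 1.80, so CKD TRF lay much nearer to CKD than to Control. Fewer fibroblasts and less matrix RNA per fibroblast cannot be told apart in such whole-tissue libraries.

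Col1a1 and Col3a1, the other main fibrillar collagen chains, followed Col1a2. Col1a1 stood at 120.2, 143, 94.9 and 95.8 scaled reads in CKD and 91.3, 80.1, 80.9 and 85.0 in CKD TRF (-0.41 ± 0.13), and Col3a1 at 238, 254, 231 and 217 and 198, 191, 129 and 197 (-0.41 ± 0.12). Both were without overlap and far above Control, at 12.7 ± 1.33 and 27.7 ± 2.62. Col4a2, a basement membrane chain, was at 74.0, 75.5, 69.2 and 74.6 in CKD and 58.8, 61.6, 60.9 and 55.5 in CKD TRF (-0.30 ± 0.10), where CKD TRF lay at the Control level of 59.9 ± 7.01. Fn1, fibronectin, stood at 85.0, 75.6, 75.3 and 62.6 and 55.6, 58.0, 44.5 and 42.6 (-0.57 ± 0.19), again apart. Mmp14, a membrane matrix protease, differed by -0.51 ± 0.17. Acta2, the smooth muscle actin of myofibroblasts, stood at 127, 168, 104 and 133 and 81.5, 87.8, 122 and 84.5 (-0.50 ± 0.17), with CKD TRF 3 inside the CKD range; 18 of 21 markers of fibroblasts, pericytes and smooth muscle were lower, with a median of -0.20 that was -0.09 without CKD TRF 2.

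Tubular injury genes were lower on balance. 26 of 37 were lower in CKD TRF, 10 at unadjusted p under 0.05 (2.96% of all genes) and 7 without overlap (2.13% of all genes). The other 11 were higher, 1 at unadjusted p under 0.05 (3.42% of all genes) and 0 without overlap. The largest rise was 0.94 and the largest fall -0.85. The median of -0.17 kept its sign under all 25 alternatives (-0.29 to -0.12), and the median between CKD and Control was 1.14. Havcr1, the injury marker KIM-1, stood at 20.8, 19.5, 18.2 and 22.8 scaled reads in CKD and at 11.9, 21.2, 6.67 and 7.75 in CKD TRF (-0.85 ± 0.30). CKD TRF 2 lay within the CKD range and the other 3 below it; without the 5 libraries with fat RNA, which leaves CKD TRF 2 as the one fed library, the difference was 0.12. Sox9, the transcription factor of tubule repair, stood at 40.9, 55.1, 30.4 and 23.4 and 22.6, 24.7, 15.9 and 19.1 (-0.78 ± 0.25), and Cd44, the hyaluronan receptor, at 29.1, 22.4, 24.9 and 22.3 and 13.5, 19.9, 15.4 and 16.8 without overlap (-0.56 ± 0.19). Plaur, the urokinase receptor, differed by -0.85 ± 0.24 at levels of 0.895 to 4.08. Lcn2, the injury marker NGAL, was not apart, with 16.1, 28.9, 18.4 and 20.7 in CKD and 17.2, 11.1, 21.6 and 27.0 in CKD TRF (-0.16 ± 0.27), nor was Spp1, osteopontin (-0.16 ± 0.16).

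Immediate early genes, which are induced within minutes by growth signals and by handling of tissue, were lower for 22 of 24, with a median of -0.19 (-0.41 to -0.13 over the alternatives) and 3 at unadjusted p under 0.05 (2.96% of all genes). Besides Myc these were Egr3, at 3.44, 2.69, 1.92 and 1.18 scaled reads in CKD and 1.29, 0.464, 0.239 and 0.723 in CKD TRF (-0.97 ± 0.28), and Fosl2, an AP-1 subunit, at 48.0, 57.4, 49.0 and 41.9 and 38.3, 35.5, 37.3 and 41.8 (-0.35 ± 0.13). Fosl2 was apart between the groups by less than 1 scaled read, and Egr3 overlapped. Genes of cell division were mixed in sign (17 of 38 higher, median -0.03). Of those lower, 3 stood at unadjusted p under 0.05 in limma (2.96% of all genes) and 4 were without overlap (2.13% of all genes), against 0 of those higher in both counts. Top2a, the topoisomerase of dividing cells, was among the 4 without overlap. It stood at 14.7, 16.8, 17.5 and 14.0 in CKD and 11.2, 12.1, 8.40 and 12.8 in CKD TRF (-0.48 ± 0.20).

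**Figure D4:**
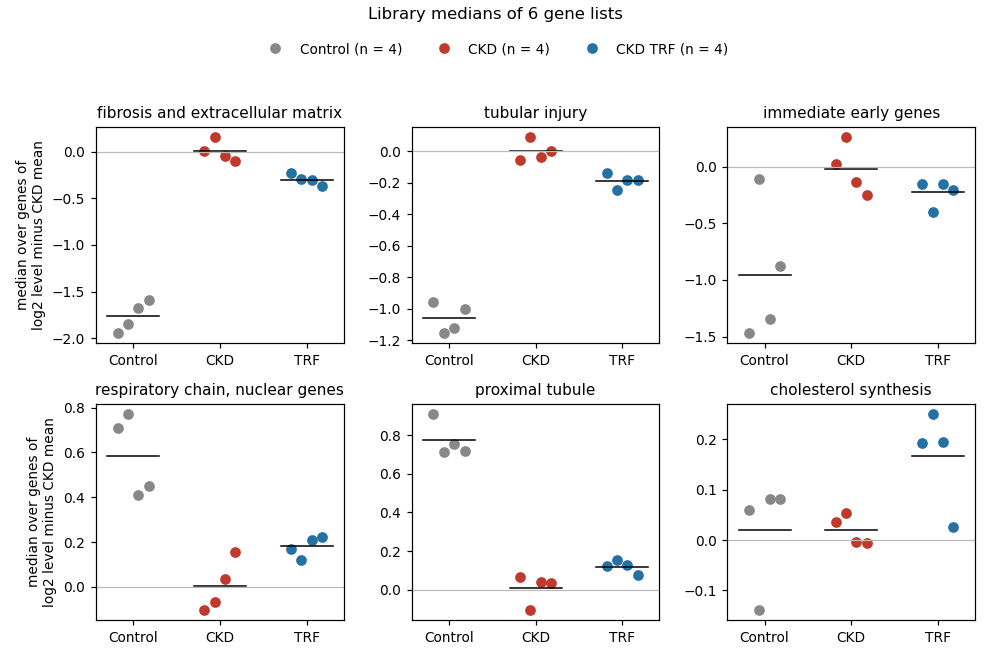
Median over the tested genes of 6 lists of each library's log2 level minus the CKD group mean of the same gene, one point per library (1 to 4 in order) with the group mean as a bar; TRF on the axis stands for CKD TRF. CKD TRF libraries lie below all CKD libraries for matrix and tubular injury genes and above all of them for proximal tubule genes, while immediate early, respiratory chain and sterol genes overlap; in all but the sterol and immediate early panels CKD TRF is nearer to CKD than any Control library is.

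Proximal tubule genes were higher on balance. 43 of 55 stood higher in CKD TRF, 10 at unadjusted p under 0.05 (3.42% of all genes), with a median of 0.14 that kept its sign under all 25 alternatives (0.05 to 0.17), was 0.08 without CKD 2 and was -0.77 between CKD and Control. Slc5a2, the glucose carrier SGLT2, stood at 133, 144, 175 and 226 scaled reads in CKD and 207, 247, 201 and 276 in CKD TRF (0.47 ± 0.14), with CKD 4 the high value of its group, against 360.0 ± 22.9 in Control. Slc7a7, a basolateral carrier of cationic amino acids, differed by 0.49 ± 0.14. Large marker genes of the segment were closer: Lrp2, megalin, differed by 0.16 ± 0.20, Slc34a1 by 0.15 ± 0.13 and Hnf4a, the segment's master transcription factor, by 0.14 ± 0.10. Slc34a1 stood at -0.02 after quantile normalization. Of 15 genes of glucose production and transport 13 were higher (median 0.17), though Pck1, its rate-limiting enzyme, differed by -0.06 ± 0.11.

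Nuclear genes of the respiratory chain were higher for 69 of 70, 21 at unadjusted p under 0.05 (3.42% of all genes) and 11 without overlap (2.37% of all genes). The median was 0.19 (0.10 to 0.23 over the 25 alternatives, the sign kept in all), against -0.56 between CKD and Control. Atp5l, a subunit of ATP synthase, stood at 208, 213, 250.4 and 255 scaled reads in CKD and 328, 267, 319 and 329 in CKD TRF (0.42 ± 0.12), and Ndufb5, of complex I, at 235, 263, 294 and 318 and 359.5, 343, 378 and 330.3 (0.35 ± 0.11). Both were without overlap and below Control, at 456 ± 77.5 and 559 ± 67.4. Cycs, cytochrome c, differed by 0.23 ± 0.08, while Ndufb3, of complex I, differed by 0.09 ± 0.11 and stood at -0.25 without the libraries with fat RNA. Genes of the tricarboxylic acid cycle showed a smaller lean of the same sign (15 of 21, median 0.07), which was -0.0086 with voom, and regulators of mitochondrial biogenesis none (10 of 20, median 0.0031).

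Ribosomal protein genes, which are short and highly expressed like those of the respiratory chain, were higher for 52 of 54, with a median of 0.13, and 5 stood at unadjusted p under 0.05 (3.42% of all genes). Length and level moved with the comparison as a whole. The median difference was 0.07 in the fifth of genes with the shortest transcripts and -0.06 in the fifth with the longest, and it was -0.04 in the tenth of lowest level and 0.06 in the tenth of highest level. The longest annotated transcript had a median of 1003 bases for the respiratory chain list, 1124 for ribosomal proteins and 5116 for the matrix list. After centring each library within bins of transcript length the median was 0.14 for the respiratory chain, 0.12 for ribosomal proteins and -0.24 for the matrix list; beyond this fit the part of length in these lists was not tested.

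Amino acid and stress response genes were higher for 23 of 31 (median 0.09). Psat1, of serine synthesis, stood at 34.4, 45.9, 35.2 and 42.7 scaled reads in CKD and 58.1, 50.2, 50.2 and 59.1 in CKD TRF without overlap (0.46 ± 0.13), and Slc3a2, the shared heavy chain of amino acid carriers, differed by 0.35 ± 0.14. Among antioxidant genes (23 of 31 higher, median 0.12) Gpx3, the plasma glutathione peroxidase made by the proximal tubule, differed by 0.55 ± 0.20 without overlap. Temperature responsive genes were mixed (7 of 20 higher, median -0.04). Cirbp, the cold-inducible RNA-binding protein, stood at 44.7, 37.8, 33.1 and 29.6 in CKD and 35.2, 29.6, 37.1 and 37.9 in CKD TRF (-0.04 ± 0.24), and Hspa1b, an inducible heat shock gene whose near-identical copy Hspa1a can share its reads, differed by -0.45 ± 0.29, and by -0.17 without CKD TRF 2. Fatty acid oxidation (11 of 28 higher, median -0.05), glycolysis (10 of 19, 0.01) and autophagy and lysosome genes (18 of 30, 0.04) lay near the median of all genes.

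Of the immune cell lists, only that of neutrophils had a positive median. T and NK cell genes were lower for 11 of 16 (median -0.11). B and plasma cell genes were lower for 4 of 7 (median -0.155, but 0.02 without CKD TRF 1). Of the neutrophil list only 4 genes were tested; 3 were higher in CKD TRF, none at unadjusted p under 0.05, with a median of 0.27. 28 of 34 macrophage and dendritic cell markers were lower, with a median of -0.16, but 1 stood at unadjusted p under 0.05 (2.96% of all genes). That gene, Csf1r, the receptor for the macrophage growth factor CSF1, stood at 114, 127, 113 and 107 scaled reads in CKD and 87.0, 105, 92.9 and 73.8 in CKD TRF (-0.37 ± 0.11) without overlap, against 68.4 ± 4.46 in Control. Lyz2, lysozyme of macrophages, was not lower, with 53.5, 53.3, 60.8 and 64.2 in CKD and 57.7, 69.5, 62.2 and 70.6 in CKD TRF (0.16 ± 0.20). Ccl2, the chemokine that draws monocytes, stood at 7.13, 11.5, 6.85 and 6.29 and 4.87, 5.76, 5.78 and 5.65, low in both groups but without overlap (-0.43 ± 0.21, unadjusted p = 0.0566, limma). C3, the central complement factor, differed by -0.15 ± 0.24 and Cd74, the invariant chain of antigen presentation, by -0.27 ± 0.14; their signs turned without the libraries with fat RNA, at 0.082 and 0.13. Interferon response genes were evenly split (24 of 44 higher, median 0.02).

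In the distal nephron the lists were mixed. Thick limb and distal tubule genes had 15 higher and 15 lower (median 0.01); Umod differed by 0.11 ± 0.16. Slc12a3, the thiazide-sensitive salt carrier, was lower by -0.32 ± 0.14 and Scnn1a, a sodium channel subunit, by -0.36 ± 0.15, both with overlap. Aqp2, the vasopressin-regulated water channel, stood at 139, 358, 198 and 399.6 scaled reads in CKD and 346, 202, 641 and 527 in CKD TRF (0.64 ± 0.29). Its high values were in CKD 2, CKD 4 and CKD TRF 1, 3 and 4, the same libraries in which fat and urothelium markers were high. Foxi1, the master factor of intercalated cells, stood at 20.9, 19.2, 19.1 and 20.7 and 17.3, 9.21, 12.4 and 12.2 (-0.64 ± 0.23), and 13 of 19 intercalated cell genes were lower. Kl, klotho, was level between the groups (171, 182, 198 and 178 in CKD, 193, 166, 162 and 203 in CKD TRF, -0.02 ± 0.15), while S100g, the calcium-binding protein calbindin-D9k, differed by 0.56 ± 0.19.

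Blood and foreign tissue moved between libraries. Hbb-bs, a beta globin, stood at 508, 577, 995 and 723 scaled reads in CKD and 1218, 1214, 904 and 788 in CKD TRF (0.58 ± 0.23), and 7 of 8 blood cell markers were higher in CKD TRF, with a median of 0.51. The 4 globins summed to 2028, 2146, 3343 and 2556 in CKD and to 3857, 4378, 3051 and 2836 in CKD TRF, with overlap; reads of the alpha and the beta globin pairs may be split between near-identical copies. Of the adipose list, 15 genes were tested and 14 were lower in CKD TRF (median -0.32, but 0.36 without CKD 4 and -0.78 without CKD 3). The sum of the list lay between 883.7 and 1945 in CKD and between 756.6 and 1246 in CKD TRF (exact two-sided permutation p = 0.571, adjusted over 4 such tests 0.857). In Control this sum was 1268 to 1754, although the 4 adipocyte markers summed to only 0 to 1.29 there, so it does not measure fat alone. The sum of those 4 markers was not tested between the feeding groups. The sum of the urothelium list lay between 45.98 and 211.4 in CKD and between 49.11 and 178.9 in CKD TRF (exact permutation p = 0.857, adjusted 0.857). Rn45s, the ribosomal RNA precursor, took between 9.59% and 11.5% of scaled reads in CKD libraries and between 11.04% and 13.3% in those of CKD TRF (exact permutation p = 0.114, adjusted 0.457); the smallest p of 4 against 4 is 0.0286. With fat and urothelium markers as covariates 0 genes passed in limma, and the matrix median was -0.40 and that of the respiratory chain 0.21. Th, Cyp11a1 and Cyp11b1 of the adrenal gland and Myh4 and Ckm of skeletal muscle were at 0 or below 0.5 scaled reads in the 8 libraries. Star, a further adrenal marker, stood at 3.02 to 5.32 in these libraries and at 2.65 to 5.44 in Control. Acta1, a further muscle marker, reached 0.784 in CKD 2.

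**Figure D5:**
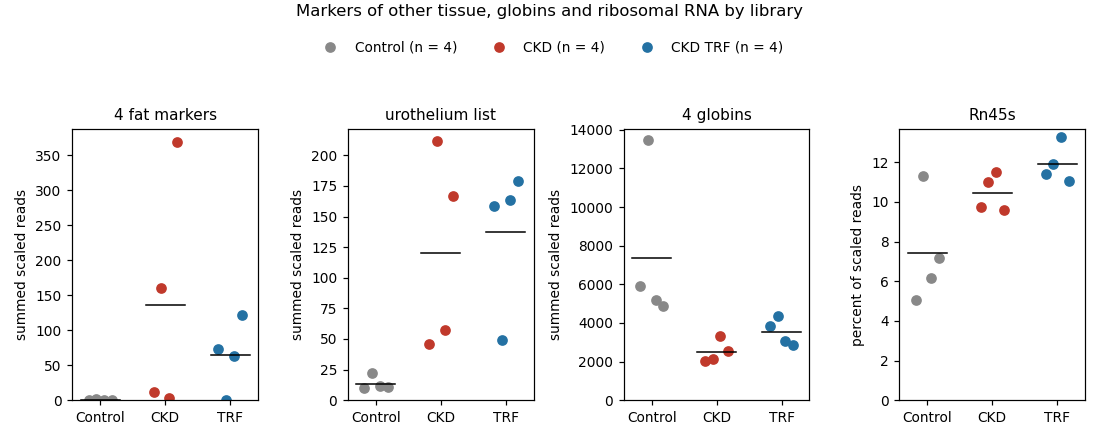
Summed scaled reads of 4 adipocyte markers (Adipoq, Cfd, Plin1, Cidec), of the urothelium list and of 4 globins, and the share of scaled reads from Rn45s in percent, by library; points are libraries 1 to 4 in order, bars are group means, and TRF on the axis stands for CKD TRF. Fat and urothelium markers are high in the same libraries, CKD 2 and CKD 4 and CKD TRF 1, 3 and 4.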

How the data were processed

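Kidney RNA of 12 libraries (4 Control, 4 CKD, 4 CKD TRF) was sequenced from the 3′ end, and per the submitters' processing notes Bowtie2, bedtools and mm10 were used, with no version or step given; the scaling method and the strand setting of the counting are not given in the sources used here. The authors deposited 1 log2 value per gene entry, 23282 entries with 23238 symbols, and the values themselves show log2 of scaled reads plus 1. Below 20 scaled reads, a library's values (8625 to 9607 of them) were whole reads to within 0.1 in 98.3% to 100% of cases, which gives the depth; 3 reads, the most that a count of 0 allows, were worth 0.168 to 0.306 scaled reads, counting error only. Of the 35 repeated symbols the most abundant entry was used.

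The 60% of genes with the highest mean level (13943) were fitted in limma 3.58.1 (R 4.3.3) with 1 mean per group over all 12 libraries, 9 residual degrees of freedom and a prior spread that follows the level. The test is two-sided with Benjamini-Hochberg adjustment over all tested genes and a threshold of 0.05. Differences are of deposited log2 values (± SE) and understate low genes. The fit was tested on simulated data. The members and gene lists were chosen with earlier results of these data known. Named genes are the 10 of lowest p in each direction, since no gene passed, and 31 anchors fixed by name; some list genes and anchors are not reported here, though they stay in the counts of their lists; promoters were to be searched only for genes past the threshold, so none was. Positions and transcript lengths are from the GENCODE annotation of mm10; Mfsd7b was not matched. Alternatives: filters, scalings, an added constant of 0.25 in place of 1, voom, sample weights, covariates, a replicate block and leaving out libraries. Library measures were compared by exact permutation (Python 3.11).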

Additional observations from a re-analysis of the deposited data

Results flagged for a closer look

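Of 118 groups of 4 values looked at, 5 held a library far from the other 3, and chance flags about 1 in 20. CKD TRF 3 was low for Col3a1 (7.02 on the deposited log2 scale, against 7.58 to 7.64 in the other CKD TRF libraries), so part of the lower Col3a1 mean rests on it; without CKD TRF 3 the difference from CKD was -0.26. CKD TRF 1 was low for Ccdc151 (3.29 against 3.57 to 3.6) and for Ccl2 (2.55 against 2.73 to 2.76), and CKD TRF 4 for Hmgcs1 (9.22 against 9.45 to 9.50). The summed urothelium list was 49.11 scaled reads in CKD TRF 2, against 158.8 to 178.9 in the other CKD TRF libraries; this library also held the least fat RNA of its group.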

How the results depend on the processing

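Of 25 alternatives, 23 called 0 genes, as the fit of the deposited values did (890 at unadjusted p under 0.05). Testing every gene above 0 called 1, Adam7 (-0.52 ± 0.06, adjusted p = 0.00787, limma), a gene of very low level; leaving out 1 library in turn gave 0 to 1 calls (Plekhh2 without CKD TRF 1) and 544 to 1088 genes at unadjusted p under 0.05. Elsewhere the lowest adjusted p ran from 0.183 to 0.994. The count at unadjusted p was 1384 with limma voom and 505 without the 5 libraries holding fat RNA, an alternative chosen, like length centring and the list medians under each setting, after the data were seen; a planned rule on the whole adipose list left out no library, because kidney expresses several of its genes, and was not run. With the replicate block 0 genes passed and 799 stood at unadjusted p under 0.05. The labels state no pairing by number. Deviations of same-numbered CKD and CKD TRF libraries correlated at 0.02, -0.18, -0.08 and 0.11, and only number 4 correlated best with its own number. Such values cannot settle whether the numbers pair the libraries.

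Of the 51 named genes, 16 had a value of the other sign somewhere, 35 of 1261 values in all, each from a gene not past the threshold; the cause was not tested. The 1261 values include fits that cannot change a gene's difference. These are the fits without a Control library, with the replicate block, with other filters and of the 8 diseased libraries alone. Without the libraries holding fat RNA these were Per2 (0.28), Dbp (-0.56), Havcr1 (0.12), C3 (0.082), Cd74 (0.13) and Ndufb3 (-0.25). With fat and urothelium covariates they were Dbp (-0.15), Nr1d1 (-0.031), Fkbp5 (-0.070), Spp1 (0.033) and Kl (0.087). Equal sums gave Arntl -0.0032 and Fkbp5 -0.047, voom -0.0012 and -0.052, quantile normalization Slc34a1 -0.018 and Umod -0.071, and median and length centring Kl 0.009 and 0.057. Leaving out 1 library gave ranges of -0.45 to 0.14 for Per2, -0.10 to 0.33 for Dbp, -0.052 to 0.22 for Nr1d1, -0.13 to 0.059 for Cirbp, -0.083 to 0.13 for Fkbp5, -0.12 to 0.016 for Pck1, -0.33 to 0.068 for Lcn2, -0.22 to 0.0023 for C3 and -0.073 to 0.035 for Kl. Leaving out 1 library moved the difference of 27 of the 51 genes by more than 1.5 times or turned it. Depth limits genes of a few scaled reads, such as Myc and Xlr4a, whose difference depends on the added constant.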

Other observations

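Gene families outside the lists were looked at after the values were seen, and are given as values. Small nucleolar RNAs, which guide the chemical modification of ribosomal RNA, were higher in CKD TRF for 13 of 13 of the H/ACA class and 11 of 12 of the C/D class, with medians of 0.43 in both and 5 and 2 members at unadjusted p under 0.05 in limma, where 3.42% of all genes stood. Many rested on few reads, such as Snora19 and Snora20 at means of 0.528 and 0.638 scaled reads in CKD. These 2 hardly differed, by 0.01 ± 0.40 and 0.03 ± 0.30. Snora30 and Snora81 were at higher levels, 21.2 and 95.7 in CKD. The library medians of the H/ACA class, as differences from the CKD mean, lay between -0.13 and 0.15 in CKD and between 0.37 and 0.66 in CKD TRF, while those of the C/D class overlapped (-0.32 to 0.37 and 0.26 to 0.69). The median difference between CKD and Control was -0.65 for the H/ACA class and -0.30 for the C/D class. Control 2 was the highest Control library for many members, such as Snora30 at 21.0, 107.8, 16.5 and 35.7 scaled reads in Control 1 to 4. It also had the highest Rn45s share of the Control libraries (11.3%). These RNAs carry no long poly(A) tail as mature molecules, and most lie inside other genes, whose reads cannot be told apart without strand and splice information. The part of Rn45s, whose share is given with the other library measures, was not tested.

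Of 48 proteasome genes 39 were higher in CKD TRF (median 0.10, and -0.39 between CKD and Control), as were 59 of 77 mitochondrial ribosomal proteins (0.08) and 19 of 24 mitochondrial import genes (0.12). Of 33 Hox genes 12 were higher (median -0.07), and of 26 histone genes 14 (0.02). In the Xlr family on the X chromosome, Xlr3a, Xlr3b and Xlr4a stood at 1.23, 1.35 and 1.28, while Xlr and Xlr4b stood at 0.01 and 0.24. The first 3 lie together with Xlr4b, and none passed the adjusted threshold. Reads of such related genes cannot be assigned with certainty.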
